A study of Homo sapiens with 13 samples.

Results

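The G1 cyclins, their kinases and the CIP/KIP inhibitors, 9 genes, are described here across EGF and serum time courses. They are the D cyclins CCND1, CCND2 and CCND3, the E cyclins CCNE1 and CCNE2, the kinases CDK4 and CDK6, and the inhibitors CDKN1B and CDKN1C. They were chosen by name, as 9 of the 11963 genes that the platform annotation gave alone to a probe set, and all 9 had a probe set with a mean signal of 20 or more. The cells were MCF10A, a spontaneously immortalized human mammary epithelial line. Every culture went without serum for 24 h. A single sample was not stimulated (1 array), and the others were stimulated with EGF or with serum for 20, 40, 60, 120, 240 or 480 min (1 array per stimulus and time, 13 in all). Serum here means what the culture medium contained beside EGF, namely cholera toxin, hydrocortisone, insulin and horse serum, and the labels give no separate dose for the stimulation.

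Cyclins of the D type bind CDK4 or CDK6 and start the phosphorylation of the retinoblastoma protein, which holds back the E2F factors. Freed E2F activates genes of S phase, the E cyclins among them, and cyclin E with CDK2 completes the step from G1 into S phase. CDKN1B (p27) and CDKN1C (p57) are inhibitors of the CIP/KIP family, which bind cyclin and kinase together. Growth factor signalling is known to raise cyclin D1 and to lower p27 in epithelial cells, the latter largely through protein turnover, and CDKN1C is known as a gene that glucocorticoids can induce.

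The values were MAS5 signals, with arrays quantile normalized on the scale of log2 of signal plus 6, and a difference below is on that scale, which understates changes of dim probe sets. Signals are printed as deposited, whereas folds, multiples of the unstimulated level and counts of arrays or pairs above or below one another come from the normalized values, and where the deposited signals order the arrays otherwise this is said. A probe set is a group of short probes for 1 transcript region, and 16 of the 17 probe sets of the 9 genes were bright, meaning a mean signal of 20 or more over the 13 arrays. The exception was a CDKN1C probe set (219533_at) with signals of 0.7 to 4.5. Early arrays are those of 20, 40 and 60 min and late arrays those of 120, 240 and 480 min. Counts of arrays or pairs above or below one another are descriptions of a probe set. The share of all probe sets with such an order was not counted. No condition had a replicate, so the 3 times of a phase, or the 6 time-matched pairs of EGF and serum arrays, gave the error, and p-values measure only the spread between these arrays. SE is the standard error, p-values are two-sided and from limma, and they were adjusted by Benjamini and Hochberg over 13586 bright probe sets with a threshold of 0.05.

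Because RNA of whole cultures was measured, fewer expressing cells and less RNA per cell cannot be told apart. Between 36.7% and 40% of probe sets had a signal under 20, except for 33.3% after serum for 20 min. The ratio of the 3' to the 5' actin control was 1.31 to 1.68 after EGF and 1.42 to 1.78 after serum. It was highest, at 1.79, on the lone unstimulated array that the multiples below refer to. The EGF array of 20 min is called 20 min in its title, which was used, and 40 min in its description. Of 8 epithelial markers, 5 had a probe set of their own and all 5 were bright, led by the basal keratins KRT14 (signals of 4863 to 6975) and KRT5 (3823 to 6185). Of 9 markers of leukocytes, fibroblasts, endothelium and muscle, only CD14 (86.1 to 286.2) and COL1A1 (22.4 to 77.7) were bright, and PTPRC was at 0.3 to 12.8.

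CDKN1C had the largest difference between the stimuli of the 9 genes, with a lower level after EGF than after serum. By its brightest probe set, 213348_at, it was higher on every serum array than on every EGF array, and the serum arrays were higher at each later time up to 240 min. That probe set had a deposited signal of 25.9 on the unstimulated array. After serum it read 65.1, 67.9 and 106.4 at 20, 40 and 60 min and 144.2, 151.9 and 132.9 at 120, 240 and 480 min. After EGF it read 24.6, 27.9 and 19.8, then 34.1, 22.5 and 19.1. The EGF arrays thus lay around the unstimulated level throughout, and the lowest serum array was above the highest EGF array. Such a separation was not counted over all probe sets. Compared within times, the probe set was 3.61-fold lower in EGF (-1.85, SE 0.20, adjusted p = 0.0456), in 6 of 6 pairs. It was the only one of the 16 past the threshold in this comparison, which called 0.0442% of all probe sets tested.

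After serum the same CDKN1C probe set stood at 2.18 times the unstimulated array by 20 min. It stood at 3.80-fold at 60 min and 5.10-fold, 5.38-fold and 4.79-fold at 120, 240 and 480 min. The last 3 arrays were close on the log2 scale (7.25, 7.32 and 7.15), and with 1 array each their order has no error of its own. The EGF arrays stood between 0.877 and 1.34 times the unstimulated one by normalized values, 4 of 6 above it, although 2 of these had a lower deposited signal. Averaged over both stimuli it was at 0.73 (SE 0.27, adjusted p = 0.469) early and 1.23 (SE 0.27, adjusted p = 0.127) late against that lone array, short of the threshold. The difference between EGF and serum was -1.46 (SE 0.22) early and -2.24 (SE 0.22) late. That change with time, tested as an interaction, was -0.78 (SE 0.31, adjusted p = 0.46), so a wider gap late than early was not shown. The interaction called 0.0147% of all probe sets and 0 of the 16.

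The 3 other bright CDKN1C probe sets were lower in EGF in 6 of 6 pairs each, without passing the threshold. Their differences were -1.80 (SE 0.24, adjusted p = 0.0593) for 219534_x_at, -1.48 (SE 0.28, adjusted p = 0.0712) for 213182_x_at and -1.29 (SE 0.33, adjusted p = 0.11) for 216894_x_at. Their EGF medians were 13.9, 11.8 and 17.9 and their serum medians 71.1, 46.5 and 48.5. They were counted as bright through the serum arrays, where they are high, so they do not count as separate support. The suffix x marks probe sets whose probes can match other sequences. For 219534_x_at and 216894_x_at the EGF and serum arrays overlapped, through the EGF arrays of 120 min and, for 216894_x_at, also 40 min. Across the 13 arrays the 4 correlated pairwise at Pearson's r of 0.73 to 0.86, as a description over shared arrays.

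**Figure D1:**
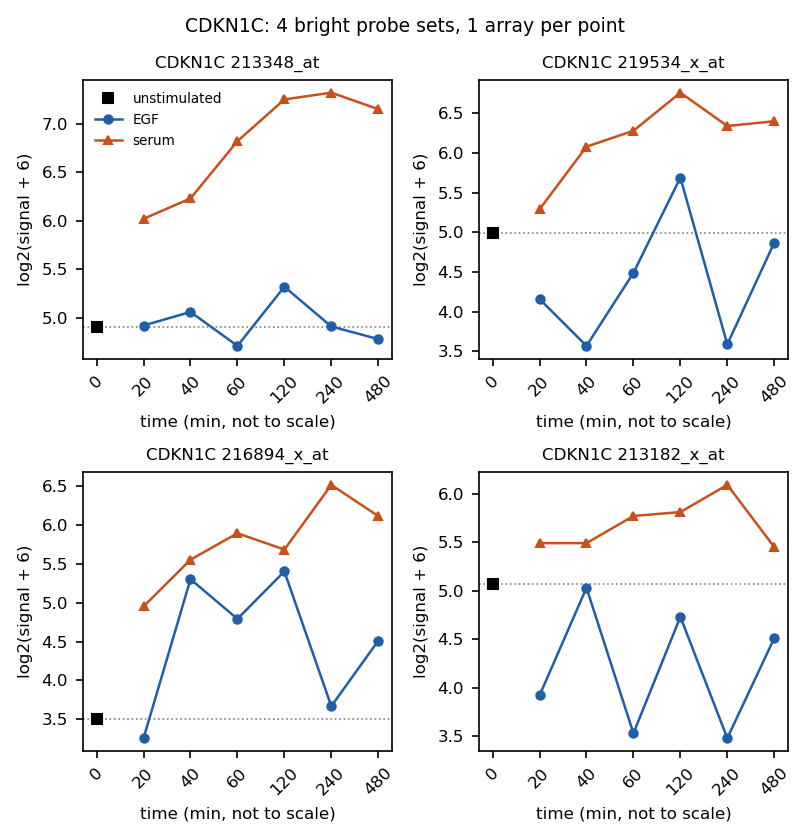
CDKN1C on log2 of signal plus 6 (y axis) at each time (x axis in min, evenly spaced), for 4 bright probe sets. Each point is 1 array: the square and dotted line are the unstimulated array, circles EGF and triangles serum. The serum points lie above the EGF point of the same time in every panel, and in 213348_at the EGF points stay near the dotted line.

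The CDKN1C call depended on single arrays. Its direction could not change in these omissions, since all 6 pairs were lower in EGF. Leaving out 1 array takes its time out of the paired fit, and the call ended without either array of 40, 60, 120, 240 or 480 min (adjusted p = 0.0738 to 0.148), while without either of 20 min it stayed (adjusted p = 0.0224). The estimate ran from -2.001 to -1.739 over these omissions. The call also ended with no offset on the log scale (-2.082, adjusted p = 0.0689), with no filter on dim probe sets (adjusted p = 0.16) and with the mean of the 4 probe sets (-1.607, adjusted p = 0.0553). With a variance trend and robust variances 213348_at stayed called, in a fit that called 757 of the 13586 bright probe sets.

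Other transcripts known to respond to glucocorticoids, the class of hormone that hydrocortisone in the serum mixture belongs to, had lower values in EGF too, and their part in the result was not tested. Of 6 listed, PER1 had no probe set of its own and 5 were bright. All 5 were lower in EGF, with a median difference of -1.03 against 0.01 for the 7858 bright genes, and 0 passed the threshold. The smallest difference was that of FKBP5 (-0.39, SE 0.26, adjusted p = 0.424). TSC22D3, a glucocorticoid-induced leucine zipper protein, was at -1.28 (SE 0.15, adjusted p = 0.0502) and the transcription factor ZBTB16 at -1.48 (SE 0.51, adjusted p = 0.179). ZBTB16 also passed the threshold in the interaction (-2.78, SE 0.21, adjusted p = 0.0444). From early to late arrays, a comparison that called 2.85% of the bright genes, 4 of the 5 fell past the threshold, ZBTB16 by 1.25 (SE 0.18, adjusted p = 0.0148), the kinase SGK1 by 1.14 (SE 0.16, adjusted p = 0.0126), the transcription factor KLF9 by 0.91 (SE 0.18, adjusted p = 0.032) and TSC22D3 by 0.81 (SE 0.15, adjusted p = 0.0289). CDKN1C 213348_at was at 0.49 (SE 0.15, adjusted p = 0.0882) in the same comparison, 0.11 (SE 0.21) in EGF and 0.88 (SE 0.21) in serum. Late against the lone unstimulated array, the 5 had a median of -0.86 with 1 of 5 above 0, whereas CDKN1C 213348_at was at 1.23. The lower values in EGF thus did not come with a shared course over time.

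The genes whose profile over the 13 arrays was most like that of CDKN1C 213348_at were GCNT1 (Pearson's r = 0.965), SPRR1B (0.936), COPS8 (0.928) and KLF4 (0.92), of 7857 compared. The 99th percentile of r over those genes was 0.811. GCNT1 encodes an enzyme of mucin-type glycan branching, SPRR1B a cornified envelope protein, COPS8 a subunit of the COP9 signalosome and KLF4 a Kruppel-like transcription factor.

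CDKN1B, which encodes p27, was lowest at 120 min after both stimuli, without a difference that passed the threshold. Its probe set 209112_at read 190.8 on the unstimulated array. After EGF it read 211.3, 143.7 and 135.6 at 20, 40 and 60 min, and 113.3, 165.8 and 159.3 at 120, 240 and 480 min. After serum it read 220.8, 201.2, 176.2, 119.9, 163.6 and 211.1 at the same times. In both series 20 min was the highest array and 120 min the lowest, at 0.625 (EGF) and 0.666 (serum) times the unstimulated level. The contrast of late with early arrays averages over that time course, and gave -0.23 (SE 0.16, adjusted p = 0.44). After normalization the EGF array was below the serum array in 6 of 6 pairs, by 0.03 to 0.47, for a mean difference of -0.24 (SE 0.10, adjusted p = 0.217) that did not pass the threshold. At 240 min, the pair that differed by 0.03, the deposited signal was the higher one in EGF.

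The CDKN1B promoter is shown because this transcript had its lowest array at the same time after both stimuli, and p27 is a known target of the forkhead factors of the FOXO group. It is the 250 bases before the RefSeq start on the plus strand of build GRCh38.p14, at chr12:12717118-12717367, and capitals mark the forkhead core TGTTTA.
CDKN1B: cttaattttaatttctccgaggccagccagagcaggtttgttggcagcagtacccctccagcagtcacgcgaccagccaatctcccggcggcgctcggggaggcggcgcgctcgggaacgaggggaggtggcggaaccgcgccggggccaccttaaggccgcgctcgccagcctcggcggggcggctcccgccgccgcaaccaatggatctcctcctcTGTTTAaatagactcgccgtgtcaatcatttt
That core, searched on both strands, occurred 1 time, beginning 32 bases before the start. It occurred in 11% of the 35116 promoter windows of this length. A match of letters is a description and was not tested as a binding site.

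The genes most like CDKN1B across the arrays were CHPT1, which makes phosphatidylcholine (r = 0.882), SFTPC, a surfactant protein gene (0.854), LEPROTL1 (0.853) and NALF2 (0.844). The 99th percentile was 0.693.

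CCND1, the growth factor-responsive D cyclin, rose from the early to the late arrays after a start below the unstimulated level. The probe set 208712_at read 207.8 on the unstimulated array. After EGF it read 171.7, 132.1 and 155.0 at 20, 40 and 60 min, and 174.2, 273.8 and 281.8 at 120, 240 and 480 min. After serum it read 181.7, 155.4, 130.7, 209.1, 280.8 and 318.7. All 6 early arrays were below the unstimulated one and 5 of the 6 late arrays above it, the exception being EGF at 120 min. After serum the 3 late arrays all exceeded the 3 early ones, and after EGF 2 of 3 did. The EGF array of 120 min was level with that of 20 min, at 7.48 against 7.49 after normalization and 174.2 against 171.7 as deposited.

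The late arrays exceeded the early ones 1.60-fold for this probe set (0.67, SE 0.15, adjusted p = 0.0432). It was 1 of 16 called, in a comparison that called 2.88% of all probe sets. The difference was 0.59 (SE 0.21) in EGF and 0.76 (SE 0.21) in serum, and the interaction was -0.16 (SE 0.17, adjusted p = 0.768). Against the lone unstimulated array the early mean was at -0.37 (SE 0.28, adjusted p = 0.806) and the late mean at 0.31 (SE 0.28, adjusted p = 0.723). At 480 min CCND1 stood at 1.36 times the unstimulated level after EGF and at 1.57 times after serum. EGF and serum differed by -0.10 (SE 0.09, 95% interval -0.31 to 0.10, adjusted p = 0.546).

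The other CCND1 probe set (208711_s_at) was also low on the early arrays and had a smaller late difference. It read 239.6 unstimulated, 151.1, 135.8, 153.9, 157.2, 250.2 and 210.7 after EGF, and 188.7, 116.2, 111.8, 148.6, 201.9 and 167.8 after serum. Of the 12 stimulated arrays 11 were below the unstimulated one, with EGF at 240 min the exception. At 60 min it stood at 0.663 (EGF) and 0.496 (serum) times that level. Its late-minus-early difference was 0.38 (SE 0.15, adjusted p = 0.162), and the early mean was at -0.70 (SE 0.28, adjusted p = 0.514) against the unstimulated array. The 2 probe sets correlated at r = 0.72 over the 13 arrays, and they differed in whether the late arrays exceeded the unstimulated one (5 of 6 against 1 of 6).

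The CCND1 call did not survive most omissions. It ended without any single array other than the 2 of 120 min (adjusted p = 0.0604 to 0.105), with estimates of 0.611 to 0.782 over all 12 omissions, and without both arrays of 20 min (0.768, adjusted p = 0.0898). It ended also with no filter on dim probe sets (adjusted p = 0.108) and with the mean of both CCND1 probe sets (0.529, adjusted p = 0.063), and it held with time as a factor (adjusted p = 0.0293). The summed signal of the 9 markers of other cell types also differed between the phases, in cultures of a single cell line. That sum was 300.5 to 493.9 on early and 189.2 to 298.6 on late arrays. Only CD14 and COL1A1 were bright, so it came mainly from these 2 transcripts. CD14 was the marker that fell past the threshold (-0.79, SE 0.15, adjusted p = 0.0303), and any relation to the CCND1 result was not tested.

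The 4 genes closest to CCND1 208712_at were CYCS (r = 0.948), which encodes cytochrome c, ACTN1 (0.945), an actin crosslinker, RRP12 (0.936), a ribosome maturation factor, and SPAG1 (0.924), a dynein assembly factor. The 99th percentile was 0.802.

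CCND2 was lowest on the early arrays by its brightest probe set. The probe set 200953_s_at read 389.4 unstimulated, 340.5, 301.6, 343.4, 347.6, 360.3 and 468.5 after EGF, and 329.3, 292.6, 287.7, 356.7, 399.8 and 370.5 after serum. Every late array was above every early one, by normalized values of 8.47 or more against 8.45 or less. How many of all probe sets separate in this way was not counted. The difference was 0.25 (SE 0.09, adjusted p = 0.134) and missed the threshold. For the dimmer 200951_s_at the EGF array exceeded its serum partner in all 6 pairs (0.56, SE 0.17, adjusted p = 0.143), with signals of 29.6 to 74.3 after EGF and 19.6 to 56.0 after serum. The brighter probe set gave 0.07 (SE 0.09) and 200952_s_at 0.23 (SE 0.18) for the same contrast, and the 3 correlated at r of only 0.08 to 0.42, so the 3 did not give one reading of CCND2. Late minus early was 0.24 (SE 0.24) for 200951_s_at and 0.26 (SE 0.19) for 200952_s_at.

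CCND3 showed no difference past the threshold. Its probe set 201700_at read 237.2 unstimulated, 204.6, 237.5, 268.0, 248.7, 295.1 and 297.9 after EGF, and 283.2, 289.6, 272.7, 273.7, 293.4 and 319.4 after serum. Of 12 stimulated arrays 11 were above the unstimulated one, by at most 1.38-fold. After normalization EGF was below serum in 6 of 6 pairs (-0.18, SE 0.08, 95% interval -0.37 to 0.02, adjusted p = 0.284), that of 240 min by only 0.03 and against the order of its deposited signals. The late-minus-early value was 0.14 (SE 0.08, adjusted p = 0.334).

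**Figure D2:**
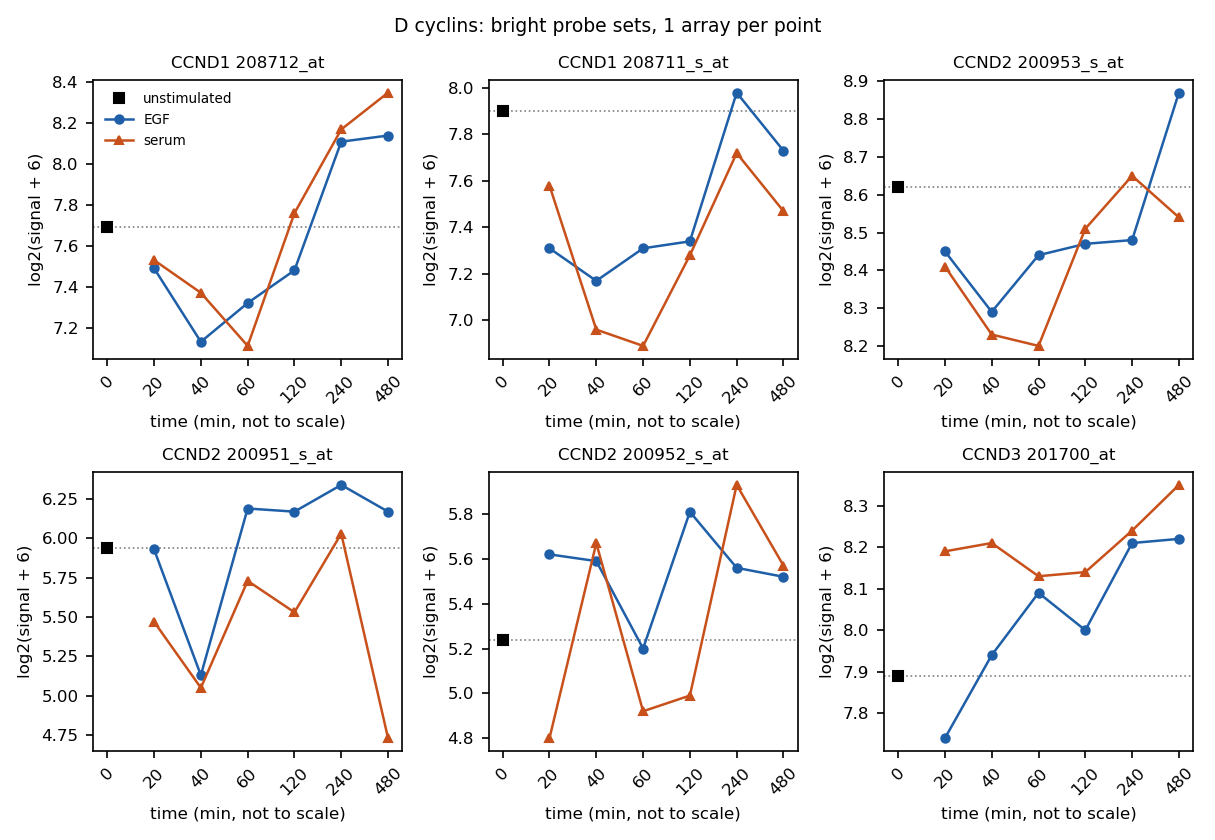
D cyclins on log2 of signal plus 6 (y axis) at each time (x axis in min, evenly spaced), 1 panel per bright probe set and 1 array per point. Squares and dotted lines are the unstimulated array, circles EGF and triangles serum. CCND1 208712_at and CCND2 200953_s_at have lower points at 20 to 60 min than at 240 and 480 min, CCND1 208711_s_at is above the dotted line only for EGF at 240 min, and the CCND2 panels differ from each other.

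Among the E cyclins, CCNE2 205034_at had a larger late-minus-early value than CCNE1, and CCNE1 a larger value late against the unstimulated array (0.40 against 0.10). Neither passed the threshold in either comparison, and the differences between the genes were not tested. The order of the genes depended on the CCNE2 probe set. With 211814_s_at, CCNE2 was below CCNE1 late minus early (0.06 against 0.21) and above it late against unstimulated (0.44 against 0.40). CCNE2 205034_at read 155.7 unstimulated, 108.1, 113.1, 133.9, 123.3, 159.1 and 186.3 after EGF, and 131.0, 131.8, 132.0, 181.1, 156.2 and 154.1 after serum. All 6 early arrays were below the unstimulated one. Of the 6 late ones, 5 were above it after normalization, serum at 480 min among them (7.36 against 7.27) with a deposited signal just below. The late-minus-early difference was 0.35 (SE 0.10, adjusted p = 0.0845), short of the threshold here and past it among probe sets with a mean signal of 100 or more (adjusted p = 0.0325). EGF and serum differed by -0.14 (SE 0.11, 95% interval -0.39 to 0.11, adjusted p = 0.51). Its dimmer probe set 211814_s_at did not share this pattern (r = 0.10 between the 2), with a late-minus-early value of 0.06 (SE 0.17, adjusted p = 0.86). The genes most like CCNE2 205034_at across the arrays were CMPK1 (r = 0.905), a nucleotide kinase, ARF4 (0.877), a small GTPase of vesicle traffic, PPP2CB (0.867), a phosphatase subunit, and C1orf174 (0.864). The 99th percentile was 0.738.

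CCNE1 stood at or above its unstimulated level throughout. The signal of 213523_at was 69.4 unstimulated, 75.8, 80.9, 64.5, 80.4, 68.5 and 94.6 after EGF, and 103.2, 65.9, 64.0, 70.7, 86.4 and 117.0 after serum. After quantile normalization all 12 stimulated arrays were above the unstimulated one, that of serum at 60 min by only 0.02 and that of EGF at 60 min by less, although 4 of those arrays had a lower deposited signal. Both series were highest at 480 min, at 1.43 times (EGF) and 1.83 times (serum) the unstimulated level. The late mean was at 0.40 (SE 0.27, adjusted p = 0.607) against that array and at 0.21 (SE 0.14, adjusted p = 0.416) against the early mean. EGF and serum differed by -0.11 (SE 0.11, 95% interval -0.37 to 0.15, adjusted p = 0.607).

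CDK4 and CDK6, the partners of the D cyclins, had no difference past the threshold. CDK4 202246_s_at read 380.6 unstimulated, 385.6, 403.6, 472.6, 489.4, 445.4 and 488.2 after EGF, and 400.6, 406.5, 431.2, 385.3, 406.9 and 416.5 after serum. All 12 stimulated arrays were above the unstimulated one, by at most 1.28-fold. The late mean was at 0.19 (SE 0.14, adjusted p = 0.629) against it and at 0.05 (SE 0.07, adjusted p = 0.748) against the early mean, and EGF and serum differed by 0.11 (SE 0.08, 95% interval -0.07 to 0.30, adjusted p = 0.464). CDK6 207143_at was dimmer, with signals of 37.0 to 74.4, and stood highest at 120 min after EGF (1.58-fold over unstimulated) and at 240 min after serum (1.59-fold). At 480 min it stood at 1.04 times that level after EGF, with a deposited signal of 45.1 against 50.1 unstimulated, and at 0.896 times after serum, and its late-minus-early value was 0.20 (SE 0.16, adjusted p = 0.484). EGF and serum differed by 0.16 (SE 0.10, adjusted p = 0.439) for CDK6.

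**Figure D3:**
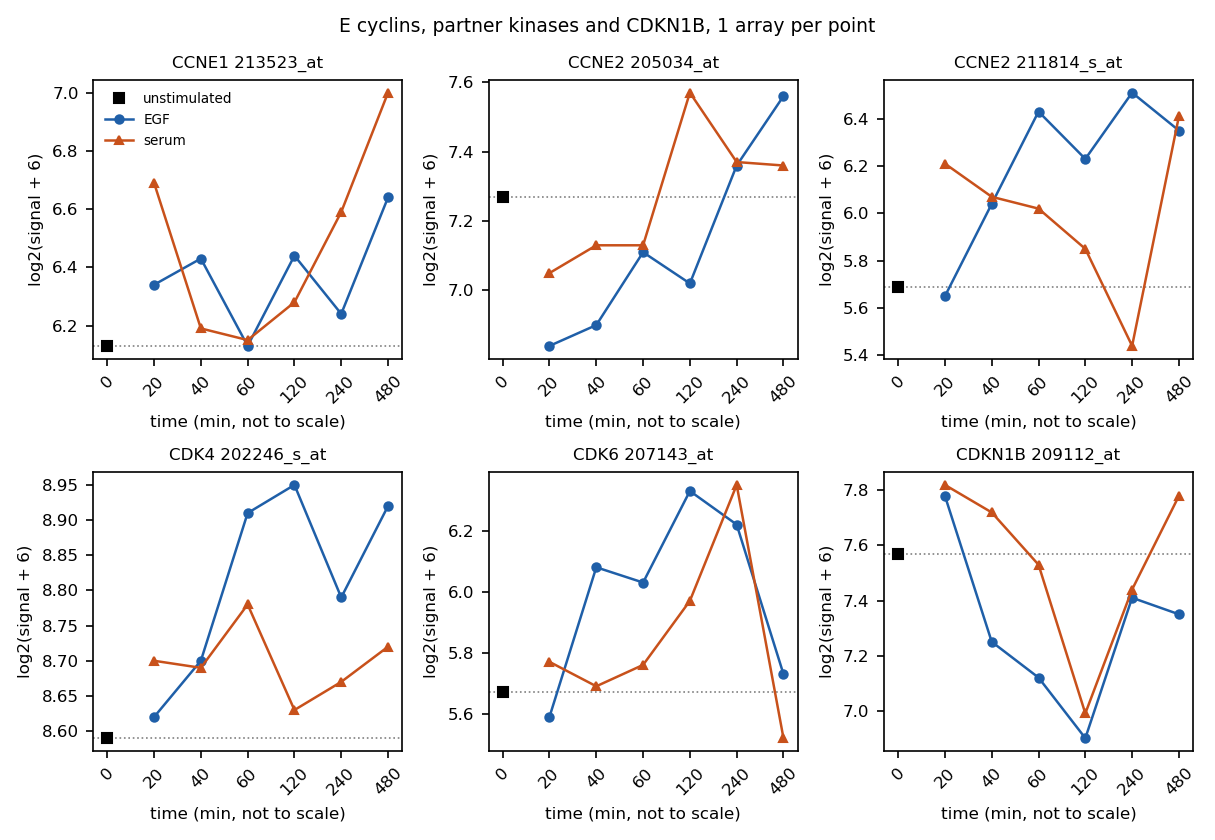
E cyclins, CDK4, CDK6 and CDKN1B on log2 of signal plus 6 (y axis, a range of its own in each panel) at each time (x axis in min, evenly spaced), 1 array per point. Squares and dotted lines are the unstimulated array, circles EGF and triangles serum. CDKN1B is lowest at 120 min in both series, and CDK4 lies above the dotted line on all 12 stimulated arrays within a narrow range.

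The promoters of CDK4 and CCNE1 are shown because these were the members whose normalized values were above the unstimulated array on 12 of 12 stimulated arrays. That count is against a lone array, and how many of all probe sets share it was not counted. It served as a rule of choice only, and for CCNE1 some deposited signals had the other order. Each is the 250 bases before the RefSeq start in build GRCh38.p14, CDK4 at chr12:57752311-57752560 on the minus strand and CCNE1 at chr19:29811741-29811990 on the plus strand. Capitals mark the E-box CACGTG, the site of MYC and related factors, in CDK4, and the GC box GGGCGG or its reverse complement, the site of SP1, in CCNE1.
CDK4: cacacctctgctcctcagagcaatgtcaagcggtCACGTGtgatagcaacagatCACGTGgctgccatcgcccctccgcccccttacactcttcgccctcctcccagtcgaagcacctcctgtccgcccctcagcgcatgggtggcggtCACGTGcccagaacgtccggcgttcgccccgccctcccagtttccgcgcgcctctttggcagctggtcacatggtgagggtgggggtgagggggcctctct
CCNE1: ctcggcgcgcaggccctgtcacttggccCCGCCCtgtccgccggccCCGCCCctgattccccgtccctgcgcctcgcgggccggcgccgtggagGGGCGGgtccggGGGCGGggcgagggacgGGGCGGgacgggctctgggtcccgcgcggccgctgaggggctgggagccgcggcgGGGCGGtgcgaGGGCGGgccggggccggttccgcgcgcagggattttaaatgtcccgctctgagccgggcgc
The CDK4 window held 3 copies of the E-box, a motif present in 6.34% of the 35116 windows, and the CCNE1 window held 7 copies of the GC box, present in 42.6%. Neither held the E2F forms TTTCCCGC, TTTCGCGC, TTTGCCGC or TTTGGCGC, found in 2.79% of windows, or the cAMP element TGACGTCA, found in 1.65%. The windows of CCND3 (3 starts), CDK6 (2 starts) and CDKN1B held none of the E-box, E2F and cAMP letters either. The motifs were searched on both strands and do not overlap one another in their letters here. Promoters of CCND1, CCND2, CCNE2 and CDKN1C were not used here.

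Read together, 15 of the 16 probe sets were higher late than early, the exception being CDKN1B, with a median of 0.25 against 0.01 over all 13586, of which 51.3% were higher. The 16 belong to 9 genes on the same arrays, so they are not separate findings. They include 3 CDKN1C probe sets that were bright only through the serum arrays. At an unadjusted p under 0.05 there were 5 of 16 (all higher) against 22.4% of all probe sets. No such tally is given for EGF minus serum, since for those 3 CDKN1C probe sets the filter drew on the serum side of that contrast. Against the lone unstimulated array 0 of 16 were called early and 0 late, where limma called 0% of all probe sets at either phase. At an unadjusted p under 0.05 these comparisons had 2 of 16 each, against 8.5% and 12.1% of all, and with a variance trend and robust variances they called 9 and 83 of all probe sets and 0 of the 16.

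**Figure D4:**
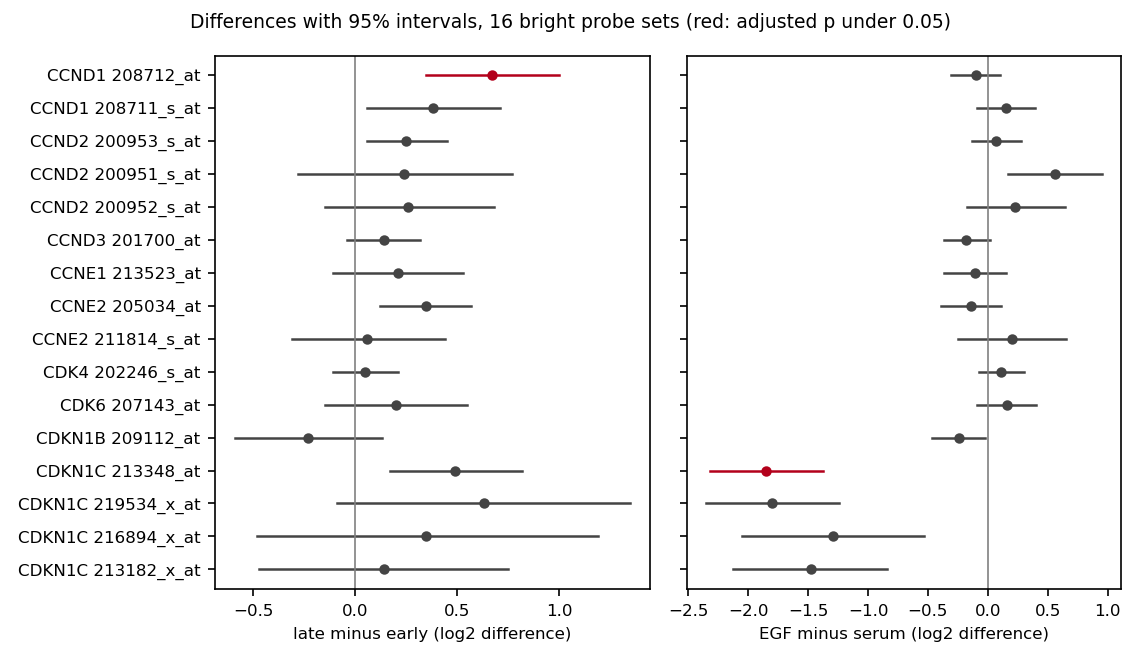
Late minus early (left) and EGF minus serum (right) on the log2 scale (x axes) for the 16 bright probe sets (y axis). Points are limma estimates, bars 95% intervals over the arrays, and red marks an adjusted p under 0.05. CCND1 208712_at is the red point on the left (0.67) and CDKN1C 213348_at on the right (-1.85), where the 4 CDKN1C intervals are the ones farthest below 0.

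The rest of the G1 machinery was measured in the same fits, each gene by its brightest probe set. No gene of the following 4 lists passed the threshold in any of the 5 comparisons, where late minus early called 2.85% of the 7858 bright genes. Of 6 partner kinases and activators, 5 were higher late than early (median 0.08), the largest value being CDC25A, the phosphatase that activates CDK2, at 0.45 (SE 0.13, adjusted p = 0.0882). CDK2 itself was at 0.04 (SE 0.07) late minus early and -0.05 (SE 0.07) EGF minus serum. Of 11 pocket proteins and E2F subunits 10 were bright, and 8 of them were higher late (median 0.11). In that list TFDP1, a partner of E2F, had 0.26 (SE 0.10, adjusted p = 0.174), and E2F1 had the largest difference between EGF and serum (0.64, SE 0.22, adjusted p = 0.172).

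Of 8 genes that act in the turnover of p27 and cyclin E, 5 were higher late (median 0.03). The kinase GSK3B, which marks cyclins for degradation, was at 0.55 (SE 0.14, adjusted p = 0.0584). SKP2, the ubiquitin ligase subunit that recognizes p27, was at -0.07 (SE 0.10) late minus early and -0.03 (SE 0.12) EGF minus serum. FBXW7, the corresponding subunit for cyclin E, had the largest EGF-minus-serum value of the list (0.38, SE 0.17, adjusted p = 0.263). Of 5 other CDK inhibitors 2 were bright. CDKN1A, which encodes p21, was at 0.09 (SE 0.14) late minus early and 0.20 (SE 0.11, adjusted p = 0.347) EGF minus serum, and CDKN2A, which encodes p16, at -0.20 (SE 0.39, adjusted p = 0.802) late minus early, near the dim limit with a mean signal of 23.6.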

How the data were processed

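RNA of 13 MCF10A samples was measured on 1-colour Affymetrix arrays. The authors deposited linear MAS5 signals, a single intensity for each probe set of an array, per the submitters' processing notes; the version is not given in the sources used here, nor are scan batches, and detection calls were not used. Of 22277 probe sets, 62 controls were left out. Symbols came from the platform annotation: 19064 probe sets carried 1 symbol, 1043 several and 2108 none.

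Signals were transformed as log2 of signal plus 6 and quantile normalized. The 13586 probe sets with a mean signal of 20 or more were fitted with limma 3.58.1 in R 4.3.3 (lmFit, eBayes). A model with 5 cells (unstimulated, and early and late for each stimulus; 8 residual degrees of freedom) gave late minus early and both phases minus unstimulated. A model with time as a block gave EGF minus serum (5) and the stimulus by phase interaction (4). The number of arrays limits the precision. The spread of the unstimulated condition, which has 1 array, was taken from the other conditions. The procedure was tested on simulated data. Figures were made with matplotlib 3.10.9 in Python 3.11.15.

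The genes, their probe sets and the gene lists were chosen with earlier results of these data known. All probe sets of the 9 genes were named; of each list, genes past the threshold in late minus early or EGF minus serum (up to 4 each), otherwise the 1 with the largest difference; and the 4 genes of highest Pearson's r for CCND1, CCNE2, CDKN1B and CDKN1C. CDK2 and SKP2 were added to these for their known roles. Promoter sequences are RefSeq's, from build GRCh38.p14, and 5 of the 9 genes matched. Alternatives were other offsets, no quantile normalization, other filters on dim probe sets, 1 value per gene, a variance trend with robust variances, time as a factor, no time block, omission of each array in turn and, chosen after seeing the data, omission of both arrays of 20 min.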

Additional observations from a re-analysis of the deposited data

Results flagged for a closer look

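The CDKN1C probe set 213182_x_at was on opposite sides of the unstimulated array after the 2 stimuli: all 6 EGF arrays were below it (by 0.04 to 1.59 on the log2 scale) and all 6 serum arrays above it (by 0.38 to 1.02). Both series were set against the same lone array, which read 30.3, and the EGF arrays were dim at 4.8 to 27.3. The probe set was counted as bright through the serum arrays, where it is high. Its contrast between the stimuli is therefore not separate support. The difference between the stimuli was tested as EGF minus serum, at -1.48 (SE 0.28, adjusted p = 0.0712 with limma), and did not pass the threshold. EGF was lower in 6 of 6 pairs. Of the 3 other bright probe sets of the gene, none had all EGF arrays below the unstimulated one: by normalized values 4 of 6 were above it for 213348_at (2 of them by 0.02 or less and with a lower deposited signal), 5 of 6 for 216894_x_at and 1 of 6 for 219534_x_at.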

How the results depend on the processing

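Of 78 values of single probe sets that were not called, 16 lay over 2 SE from 0, and 0 of their 320 refits had the other sign. These 16 were picked for that distance in the same data, and the refits share most arrays. A change of sign was therefore unlikely beforehand, and its absence does not show a stable direction. The other values lay within 2 SE, where a sign has little meaning, and 22 of them had the other sign in at least 1 refit (63 of 1554 refits in all). An example is CDKN1C 216894_x_at late minus early (0.355, and -0.071 without both arrays of 20 min). In 9 refits a value passed the threshold, all of CDKN1C in EGF minus serum or of CCNE2 in late minus early. Those of CDKN1C were of probe sets counted as bright through the serum arrays, so they are not separate support. The CCND1 208712_at value of 0.675 late minus early lost its call with no filter on dim probe sets (0.675), with the mean of its probe sets (0.529) and without both arrays of 20 min (0.768), and ran from 0.611 to 0.782 with each array left out. The CDKN1C 213348_at value of -1.851 in EGF minus serum lost its call with no offset (-2.082), no filter (-1.851) and the mean of the probe sets (-1.607), and ran from -2.001 to -1.739 with each array left out. The unfiltered fit tests more probe sets and the omissions have fewer arrays; the cause of the other changes was not tested.

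Called probe sets of the 9 genes late minus early (1 here) were 0 with no filter, with the mean of the probe sets and without both arrays of 20 min, 2 with a mean signal of 100 or more, and 0 to 2 with each array left out. In EGF minus serum (1 here) they were 0 with no offset, no filter, the filter of 100 (which leaves out CDKN1C) and the mean of the probe sets, 3 with an offset of 24 or no time block, 4 with a variance trend, and 0 to 1 with each array left out. The counts above 1 came from CDKN1C probe sets counted as bright through the serum arrays, so they do not count as separate support.

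Counts over all probe sets moved far more. Late minus early called 391, and 33 with no filter, 930 with the filter of 100, 260 with the brightest probe set or the mean per gene, 978 with a variance trend, 120 with time as a factor, 40 without both arrays of 20 min and 31 to 556 with each array left out. EGF minus serum called 6, and 232 with an offset of 24, 2 with no filter or the mean per gene, 572 with the filter of 100, 757 with a variance trend, 269 with no time block, 30 without both arrays of 20 min and 2 to 30 with each array left out. Early minus unstimulated called 0, and 3 with no offset or no filter, 4 with the filter of 100, 9 with a variance trend and 0 to 1 with each array left out. Late minus unstimulated called 0, and 10 with no offset or an offset of 24, 1 with no quantile normalization or the mean per gene, 3 with no filter, 22 with the filter of 100, 83 with a variance trend and 0 to 5 with each array left out. The interaction called 2, and 0 with no offset, no filter, without both arrays of 20 min or with each array left out, 8 with the filter of 100 and 120 with a variance trend. No paired analysis was possible because no condition had more than 1 array, apart from the pairing by time that the EGF minus serum fit uses.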
